A study of Mus musculus with 6 samples.

Results

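The genes followed here make, break down and scavenge heme, the iron-containing ring that serves as the prosthetic group of hemoglobin, catalase and the cytochromes. The 9 genes, Alas1, Alas2, Alad, Urod, Cpox, Fech, Hmox1, Hp and Hpx, were taken by symbol from the count table of 20140 genes, and all 9 were among the 16370 genes tested. Bulk polyadenylated RNA of whole liver was sequenced on day 21 from 3 groups of mice, with 2 livers per group. Sham livers came from mice that received PBS. Livers labelled intra-C and intra-S came from mice given CT26, a mouse colon carcinoma cell line of BALB/c origin. The labels do not spell out the abbreviations, and reading intra-C as the cecal and intra-S as the splenic model is an inference from the study's methods. The models that the study describes are orthotopic implantation of 1000000 CT26 cells, with the tumor in the cecum and day 21 taken as the premetastatic stage, and injection of 50000 CT26 cells into the spleen, after which tumors grow in the liver. BALB/c is the strain given for both, and mice were bought at 6 to 10 weeks of age. On this reading, tumor route, cell dose and stage differed together between the 2 groups, and their effects cannot be told apart. RNA of CT26 cells, immune cells and blood within a liver counts towards its values.

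In the liver, heme is made mostly for cytochrome P450 enzymes, and ALAS1 sets the pace of the pathway. ALAS2 catalyses the same first step in developing red cells, where the product goes into hemoglobin. HMOX1 opens the heme ring and releases iron, carbon monoxide and biliverdin, whereas hepatocytes secrete haptoglobin (Hp) and hemopexin (Hpx) into plasma, where haptoglobin binds free hemoglobin and hemopexin binds free heme. Both are acute phase proteins, whose production by hepatocytes rises in inflammation.

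Each liver had 32838321 to 43368309 counts, and levels are given as CPM, the counts of a gene scaled to a common library total with TMM factors of 0.884 to 1.14. An upper limit of 3 counts for a gene with no count comes to between 0.0679 and 0.0928 CPM, depending on the liver, and covers counting error only. The 2 intra-S livers differed from each other more than the other pairs did: 285 of 7261 genes with a mean of at least 10 CPM (3.93%) differed over 4-fold between them, against 39 (0.537%) between intra-C and 19 (0.262%) between sham livers. All 9 hepatocyte markers listed were detected in each liver and summed to between 112326 and 186257 CPM. With 2 livers per group, p-values measure only the spread between these livers, and an exact two-sided permutation test of 2 against 2 livers cannot give a p below 0.333.

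Against sham livers, the genes moved in 2 directions. In intra-C livers Hp and Hpx rose, so that 2 of the 9 genes were called higher by edgeR's quasi-likelihood test at an adjusted p under 0.05, where 4.92% of all tested genes were called higher. None was called lower, where 2.38% of all tested genes were. In intra-S livers 4 of the 9 rose (Hp, Hpx, Hmox1 and Alas2), against 6.78% of all tested genes, and 2 of the 9 fell (Alas1 and Alad), against 3.95%. At an unadjusted p under 0.05, 3 were higher and 2 lower in intra-C livers, where 2493 and 1935 of all 16370 tested genes were, and 4 were higher and 5 lower in intra-S livers, where 2817 and 2132 of all tested genes were. The median log2 fold change of the 9 genes was -0.12 in intra-C and -0.65 in intra-S livers, beside 0.01 and 0.04 over all tested genes. The 2 sham livers are shared by both comparisons, whose calls are therefore not independent, and leaving out either sham liver ended every call in both, over all genes as well as for the heme genes (adjusted p-values of the latter 0.0871 to 0.235). Leaving out either intra-C liver ended the intra-S calls of Alas1, Alas2, Alad and Hmox1 (adjusted p-values 0.0543 to 0.0953), but not those of Hp and Hpx.

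**Figure D1:**
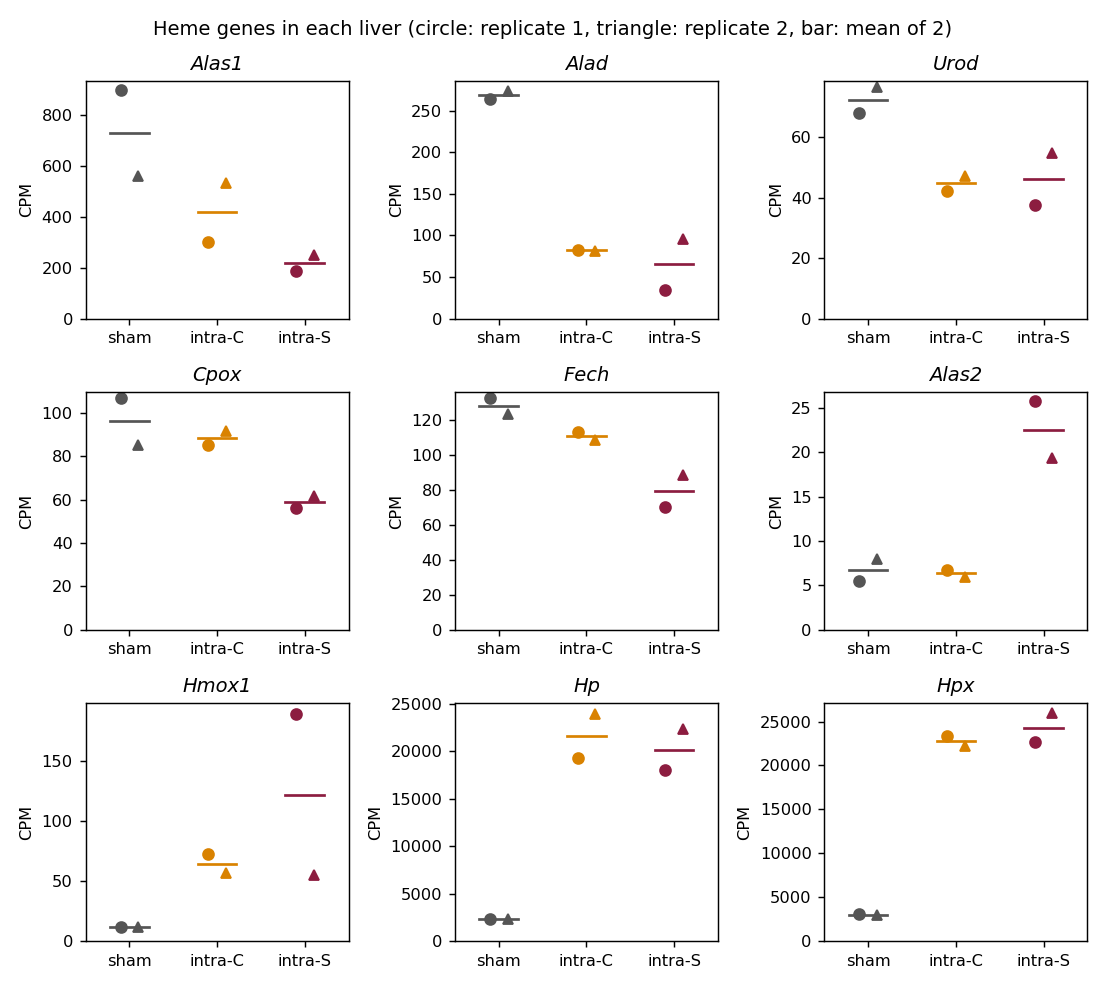
Each panel plots the CPM of a heme gene (linear axis from 0) in the 6 livers, with a circle for replicate 1, a triangle for replicate 2 and a bar for the mean of the group. Hp and Hpx lay at 17985 CPM or more in each tumor-group liver and at 3048 CPM or less in each sham liver, whereas Alad lay at 95.3 CPM or less in each tumor-group liver and at 264 CPM or more in each sham liver.

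The synthesis genes of the hepatocyte pathway were examined first. Alas1 encodes the rate-limiting 5-aminolevulinate synthase and lies on the minus strand of mm10 at chr9:106233455-106247954. Its level was 899 and 562 CPM in sham, 303 and 533 CPM in intra-C and 185 and 249 CPM in intra-S livers. The intra-S livers were the lowest and overlapped no other group, while intra-C replicate 2 came close to sham replicate 2. Alas1 fell in intra-S livers to 217 ± 44.9 CPM from 730 ± 238 CPM (mean ± SD, n = 2), which was 3.36-fold lower, with a log2 fold change of -1.75 (SE 0.38) and an adjusted p of 0.0375 in edgeR. In intra-C livers its log2 fold change of -0.81 (SE 0.37) did not pass the test at an adjusted p of 0.219. In bulk RNA, fewer cells of a type and less RNA per cell cannot in general be told apart. Of 9 hepatocyte markers, none was called lower in either comparison. Of all tested genes, 2.38% were called lower in intra-C and 3.95% in intra-S livers, so few or no calls among 9 would be usual. The median log2 fold change of the 9 markers was 0.58 in intra-C and 0.20 in intra-S livers. Ttr, transthyretin, was nonetheless at 5097 and 5365 CPM in sham against 3120 and 2677 CPM in intra-C livers (log2 fold change -0.85, adjusted p = 0.0706), and 1 marker was called lower in intra-C livers by DESeq2, with only the 2 groups compared, without TMM and without either intra-S liver, and in intra-S livers without intra-S replicate 1. The markers, mostly albumin (Alb), summed to 118575 and 112326 CPM in sham, 156341 and 113460 CPM in intra-C and 186257 and 138570 CPM in intra-S livers. The libraries do not mark strand, and exons of Alas1 overlap an antisense gene, 4930500F10Rik, that the count table does not list.

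The 250 bases before the Alas1 start in RefSeq (GRCm38.p6, chr9:106247955-106248204, minus strand, printed 5′ to 3′ as transcribed) are shown because Alas1 and Alad are the 2 genes that fell. Capitals mark the only match among 7 motifs searched on both strands, the STAT motif TTCNNNGAA, from 171 to 163 bases before the start. That motif is in 7.02% of all 32851 promoter windows of the same length, and the match is a description, not a binding site.
Alas1: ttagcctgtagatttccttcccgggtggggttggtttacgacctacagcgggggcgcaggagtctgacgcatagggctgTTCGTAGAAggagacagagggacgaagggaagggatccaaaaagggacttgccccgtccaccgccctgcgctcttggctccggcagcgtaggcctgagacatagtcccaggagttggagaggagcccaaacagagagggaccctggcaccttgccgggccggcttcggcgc

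Alad encodes the enzyme that joins 2 molecules of aminolevulinate into porphobilinogen (chr4:62505984-62520063, minus strand). It was at 264 and 274 CPM in sham, 82.7 and 81.4 CPM in intra-C and 34.8 and 95.3 CPM in intra-S livers. All 4 livers of the tumor groups were below both sham livers, and intra-S replicate 1 was the lowest. Alad fell 4.13-fold in intra-S livers, to 65.1 ± 42.8 CPM from 269 ± 7.11 CPM (n = 2, log2 fold change -2.04, SE 0.45, edgeR adjusted p = 0.039), and its log2 fold change was -1.49 without intra-S replicate 1 and -2.95 without intra-S replicate 2, both still called. In intra-C livers it was 82.1 ± 0.909 CPM, 3.27-fold below sham, but with a log2 fold change of -1.71 (SE 0.45) it missed the threshold at an adjusted p of 0.0702. The fit shares 1 estimate of the spread between the groups. With only the sham and intra-C livers in the fit, the adjusted p of this difference was 0.000493, and without intra-S replicate 1 or 2 it was 0.000316 or 0.000392. None of the 7 motifs was in the 250 bases before the Alad start.

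The next 3 enzymes of the pathway were at intermediate levels and none passed the test in either comparison. Urod, which shortens the side chains of uroporphyrinogen (chr4:116989965-116994436, minus strand), was at 67.9 and 76.5 CPM in sham, 42.2 and 47.1 CPM in intra-C and 37.5 and 54.8 CPM in intra-S livers. Its log2 fold change was -0.69 (SE 0.24) in intra-C and -0.65 (SE 0.24) in intra-S livers, with adjusted p-values of 0.131 and 0.134. Cpox, which forms protoporphyrinogen (chr16:58670208-58680391, plus strand), was at 107 and 85.3 CPM in sham, 85.2 and 91.4 CPM in intra-C and 56.0 and 61.4 CPM in intra-S livers. Sham and intra-C livers overlapped in Cpox, whereas both intra-S livers were below all others, with a log2 fold change against sham of -0.71 (SE 0.20) and an adjusted p of 0.0743. Fech, ferrochelatase, which inserts iron into the finished ring (chr18:64456542-64489098, minus strand), was at 133 and 124 CPM in sham, 113 and 109 CPM in intra-C and 69.9 and 88.2 CPM in intra-S livers. Its 3 groups did not overlap, and its log2 fold change in intra-S livers was -0.70 (SE 0.20, adjusted p = 0.0782). Cpox and Fech were called lower in intra-S livers in 5 of the 16 alternative analyses each, among them DESeq2 with adjusted p-values of 0.0201 and 0.0217.

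**Figure D2:**
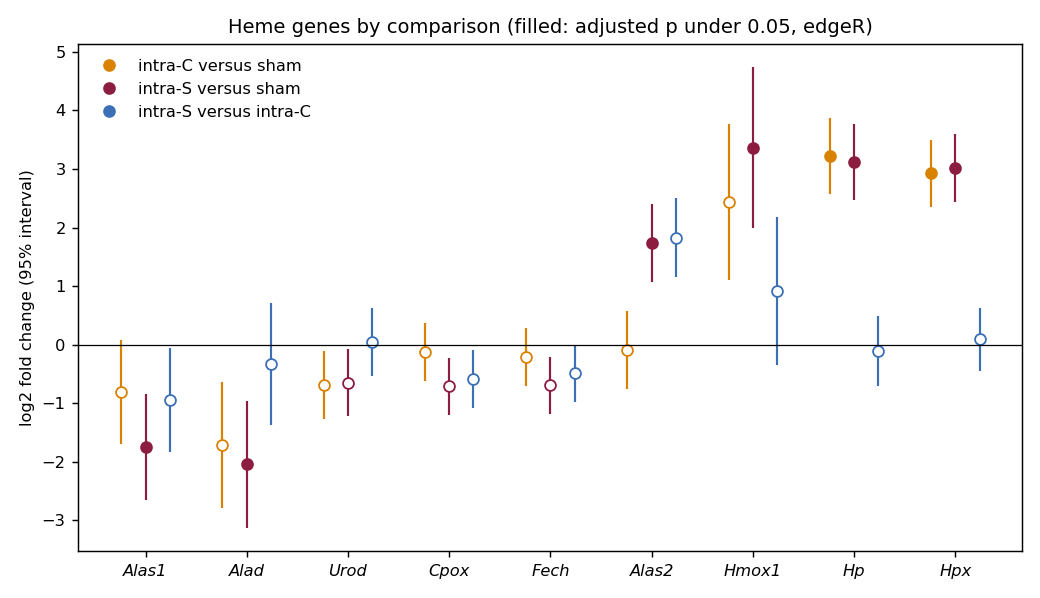
Points are log2 fold changes of the 9 heme genes from edgeR with 95% intervals, coloured by comparison and filled where the adjusted p was under 0.05. Hp and Hpx are filled and near 3 against sham in both tumor groups, Alas1, Alad, Alas2 and Hmox1 are filled for intra-S versus sham alone, and no point of intra-S versus intra-C is filled.

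Alas2 moved opposite to Alas1. It lies on the X chromosome (chrX:150547417-150570622, plus strand) and was at 5.54 and 8.01 CPM in sham, 6.72 and 5.97 CPM in intra-C and 25.8 and 19.4 CPM in intra-S livers. Sham and intra-C livers overlapped, and both intra-S livers were above all others. Alas2 rose 3.33-fold in intra-S livers (22.6 ± 4.54 against 6.78 ± 1.75 CPM, n = 2, log2 fold change 1.73, SE 0.28, edgeR adjusted p = 0.0181). In intra-C livers the log2 fold change was -0.09, with a 95% interval from -0.76 to 0.57. The ratio of Alas1 to Alas2 in TPM, which is scaled by gene length as well as library total, was 100 and 43.4 in sham, 27.9 and 55.2 in intra-C, and 4.45 and 7.96 in intra-S livers. Exons of Alas2 overlap the antisense gene Apex2, whose own level was 3.53 to 5.40 CPM across the livers with overlapping groups.

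Erythroid markers moved with Alas2. Of 17 such genes tested, 9 rose in intra-S livers with a median log2 fold change of 3.23, and none was called in intra-C livers, where the median was 0.08. Over all tested genes 6.78% rose in intra-S and 4.92% in intra-C livers, with medians of 0.04 and 0.01. In intra-C livers DESeq2 called 1 erythroid marker higher, and with only the 2 groups compared 2 of 11 were lower. The count of 9 became 14 in DESeq2 and without intra-S replicate 2, 6 without intra-S replicate 1, 1 or 0 without intra-C replicate 1 or 2, and 0 with only the 2 groups compared. Their summed level was 322 and 458 CPM in the sham, 477 and 325 CPM in the intra-C and 1934 and 1300 CPM in intra-S livers. Hbb-bs, adult beta globin and the most abundant of them, was at 123 and 214 CPM in the sham, 223 and 146 CPM in the intra-C and 865 and 673 CPM in intra-S livers. Gata1, an erythroid transcription factor, had a count of 0 in both sham livers and was at 0.0764 and 0.464 CPM in intra-C and 2.39 and 0.393 CPM in intra-S livers, so that these groups overlapped. The ratio of Alas2 to Hbb-bs in TPM stayed between 0.00911 and 0.0143 in all 6 livers, with the intra-S livers lowest. What part red cell precursors or blood had in the Alas2 difference was not tested.

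The 250 bases before the Alas2 start (RefSeq, GRCm38.p6, chrX:150547167-150547416, plus strand, 5′ to 3′) are shown as the erythroid counterpart of the Alas1 sequence. Capitals mark TATAAA read on the other strand, from 209 to 204 bases before the start, and the GATA motif AGATAA read on the other strand, from 86 to 81 bases before it. These motifs are in 12.4% and 9.99% of all promoter windows.
Alas2: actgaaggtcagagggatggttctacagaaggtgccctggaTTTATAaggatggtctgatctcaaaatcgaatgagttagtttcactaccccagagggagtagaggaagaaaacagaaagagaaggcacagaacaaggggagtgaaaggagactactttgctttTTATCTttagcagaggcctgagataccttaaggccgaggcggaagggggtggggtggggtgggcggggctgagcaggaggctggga

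Hmox1, the inducible heme oxygenase (chr8:75093618-75100593, plus strand), was at 11.9 and 11.8 CPM in sham, 72.0 and 56.4 CPM in intra-C and 189 and 54.6 CPM in intra-S livers. Both sham livers were the lowest, and the intra-S livers lay on either side of the intra-C livers. Hmox1 rose 10.3-fold in intra-S livers (122 ± 95.0 against 11.8 ± 0.125 CPM, n = 2, log2 fold change 3.36, SE 0.57, edgeR adjusted p = 0.021). In intra-C livers it was 64.2 ± 11.1 CPM, 5.42-fold above sham, with a log2 fold change of 2.44 (SE 0.55) and an adjusted p of 0.0503, just short of the threshold. This intra-C difference was called in 8 of the 16 alternatives, with adjusted p-values of 0.000177 in DESeq2 and 0.312 at the highest. The intra-S call held without either intra-S liver, with a log2 fold change of 2.21 without replicate 1 and 3.997 without replicate 2. Hmox2, the constitutive heme oxygenase, did not pass the test in either comparison, and the ratio of Hmox1 to Hmox2 in TPM was 0.607 and 0.525 in the sham, 2.22 and 1.76 in the intra-C and 3.60 and 1.94 in the intra-S livers.

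Markers of Kupffer cells and macrophages, cells that also express Hmox1, were higher in both tumor groups: 11 of 14 rose in intra-C and 10 of 14 in intra-S livers, with median log2 fold changes of 2.37 and 2.36, where 4.92% and 6.78% of all tested genes rose. Without either intra-C liver the counts were 0 in intra-C and 7 in intra-S livers, and with only the 2 groups compared 6 were called in intra-S livers. Their summed level was 326 and 264 CPM in the sham, 1189 and 1422 CPM in the intra-C and 844 and 1394 CPM in intra-S livers, and no marker was at 0 in any liver. Intra-S replicate 1, the liver highest in Hmox1, had the lowest of these sums among the tumor-group livers. It was also the highest liver in Spic, a transcription factor of macrophages that take up red cells, at 11.4 CPM against 1.45 to 6.77 CPM in the others, and in erythroid markers. The part of macrophage number in the Hmox1 difference was not tested.

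**Figure D3:**
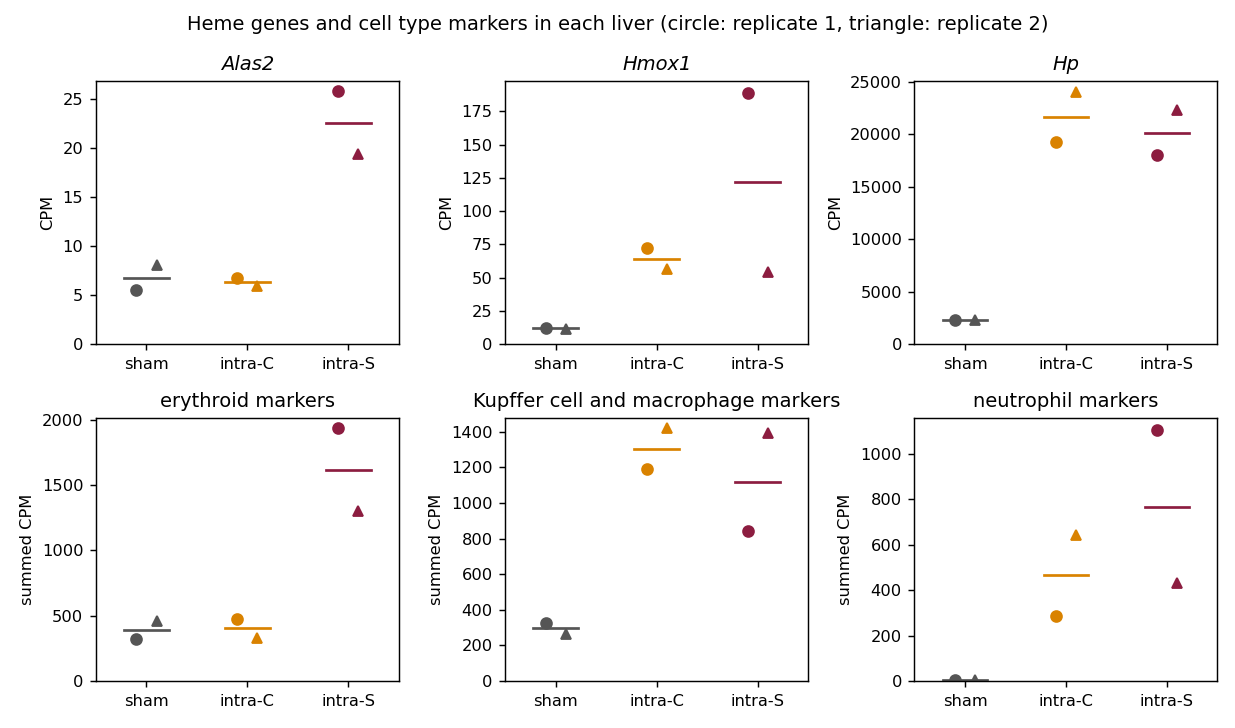
The upper panels plot the CPM of Alas2, Hmox1 and Hp in each liver and the lower panels the summed CPM of erythroid, Kupffer cell and macrophage, and neutrophil markers (linear axes from 0, circle for replicate 1, triangle for replicate 2, bar for the mean). Alas2 and the erythroid sum are high in the intra-S livers alone (1300 and 1934 CPM for the sum), whereas the liver with the highest Hmox1, intra-S replicate 1, has a macrophage sum of 844 CPM, below the other 3 tumor-group livers.

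The scavenger genes had the smallest adjusted p-values of the 9. Hpx (chr7:105591611-105600116, minus strand) was at 3048 and 2961 CPM in sham, 23316 and 22256 CPM in intra-C and 22707 and 25928 CPM in intra-S livers. Each liver of the tumor groups was far above both sham livers, and the 2 tumor groups overlapped. Hpx rose 7.58-fold in intra-C livers (log2 fold change 2.92, SE 0.24, edgeR adjusted p = 0.00609) and 8.09-fold in intra-S livers (log2 fold change 3.02, SE 0.24, adjusted p = 0.00469).

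Hp (chr8:109575128-109579172, minus strand) was at 2281 and 2343 CPM in sham, 19294 and 23987 CPM in intra-C and 17985 and 22316 CPM in intra-S livers. As for Hpx, the sham livers stood apart and the tumor groups overlapped. Hp rose 9.36-fold in intra-C livers (log2 fold change 3.23, SE 0.27, edgeR adjusted p = 0.00628) and 8.72-fold in intra-S livers (log2 fold change 3.12, SE 0.27, adjusted p = 0.00578). Together Hp and Hpx took 0.600 and 0.604% of all counts in sham, 3.86 and 4.55% in intra-C and 3.60 and 4.77% in intra-S livers. The ratio of Hp to Hpx in TPM was 0.823 and 0.871 in the sham, 0.911 and 1.19 in the intra-C and 0.872 and 0.947 in the intra-S livers.

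Hp and Hpx moved with the other acute phase genes. Of 17 further acute phase genes, all rose in intra-C livers with a median log2 fold change of 3.14, and 16 rose in intra-S livers with a median of 2.90, complement C3 being the exception, where 4.92% and 6.78% of all tested genes rose. Without intra-C replicate 1 or 2, 6 or 7 of them were called in intra-C livers, and with only the 2 groups compared 11 were called in intra-S livers. Neutrophil markers, which matter here because neutrophil granules also hold haptoglobin, rose as well, 11 of 12 in intra-C and all 12 in intra-S livers against the same shares of all tested genes, with 6 or 5 called in intra-C livers without intra-C replicate 1 or 2. Their sum was only 2.61 and 4.07 CPM in the sham, 288 and 642 CPM in the intra-C and 1105 and 432 CPM in intra-S livers. Their part in the Hp difference was not tested. Mpo, Elane and Camp were at 0 in both sham livers. Of the 9 hepatocyte markers, 1 was called higher in each comparison (Apob in intra-C and Serpina1a in intra-S livers), and over the alternatives this count ran from 0 to 5 in intra-C and from 0 to 3 in intra-S livers. Of 7 ductal and epithelial markers tested, none was called in intra-C livers and Krt18 and Sox9 rose in intra-S livers, beside 6.78% of all tested genes. That count of 2 ran from 0 to 4 over the alternatives and was 0 without either intra-C or either sham liver, with only the 2 groups compared, without TMM and on both TPM scales.

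The 250 bases before the Hpx start (RefSeq, GRCm38.p6, chr7:105600117-105600366, minus strand, 5′ to 3′ as transcribed) are shown for the scavenger that rose in both groups. Capitals mark the C/EBP motif TTGCNNAA from 200 to 193 bases before the start and, from 95 to 87 bases before it, the NRF2 and BACH1 motif TGACNNNGC read on the other strand. They are in 9.56% and 10.2% of all promoter windows.
Hpx: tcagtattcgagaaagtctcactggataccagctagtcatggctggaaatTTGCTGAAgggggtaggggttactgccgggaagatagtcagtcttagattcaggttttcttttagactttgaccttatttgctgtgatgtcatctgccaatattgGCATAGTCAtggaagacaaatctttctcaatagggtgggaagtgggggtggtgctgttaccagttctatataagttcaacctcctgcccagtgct

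Promoter windows were matched for 6 of the 9 genes. Those of Urod and Cpox held none of the 7 motifs, and the remaining motifs searched, NRF1 (GCGCANGCG, in 5.16% of windows) and the CACCC box (CCACACCC, in 3.2%), were in none of the 6. Absence of these letters says nothing about the factors.

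In the direct comparison of intra-S with intra-C livers, none of the 9 genes was called, where 0% of all tested genes were called in either direction (smallest adjusted p 0.113 in edgeR). At an unadjusted p under 0.05, 1 of the 9 genes was higher and 2 were lower, and over all tested genes 1144 and 1049. DESeq2 called 240 genes higher and 284 lower, with Alas2 among the higher ones at an adjusted p of 4.97e-05. Alas2 had the largest difference of the 9 in edgeR, a log2 difference of 1.83 (95% interval 1.15 to 2.50) with an adjusted p of 0.285. The interval of the difference ran from -1.83 to -0.05 for Alas1, from -1.08 to -0.10 for Cpox and from -0.97 to 0.00338 for Fech. Hp and Hpx had intervals from -0.70 to 0.49 and from -0.44 to 0.63, which leave room for moderate differences in either direction. Hmox1 and Alad had the widest, from -0.34 to 2.19 and from -1.38 to 0.71. Without intra-S replicate 2, Alas2, Alad, Fech and Hmox1 were called in this comparison (adjusted p-values 0.00379, 0.00396, 0.0337 and 0.0029), whereas without intra-S replicate 1 the log2 difference was 0.22 for Alad and -0.23 for Hmox1, the other direction in each case.

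Levels of different genes can be compared only per length, on the TPM scale. In sham livers the order by mean level was Hpx (4563 TPM), Hp (3863), Alas1 (504), Alad (128), Urod (107), Fech (97.9), Cpox (67.8), Hmox1 (16.9) and Alas2 (7.55). Of these neighbours, Urod and Fech overlapped between livers. In intra-C livers it was Hp (31881 TPM), Hpx (30376), Alas1 (255), Hmox1 (80.1), Fech (74.3), Urod (58.4), Cpox (54.8), Alad (34.2) and Alas2 (6.20). Hp overlapped Hpx there, as did Hmox1 with Fech and Urod with Cpox. In intra-S livers the order was Hpx (30146 TPM), Hp (27526), Hmox1 (139), Alas1 (123), Urod (56.2), Fech (49.4), Cpox (33.8), Alad (25.6) and Alas2 (20.4). Hpx overlapped Hp, Hmox1 overlapped Alas1, Urod overlapped Fech, and Alad overlapped both Cpox and Alas2. By mean level Hmox1 thus stood below all 5 hepatocyte synthesis genes in sham livers, below Alas1 alone among them in intra-C livers, and beside Alas1 in intra-S livers. The ratio of Hmox1 to Alas1, breakdown over the first step of synthesis, was 0.0274 and 0.0433 in the sham, 0.492 and 0.219 in the intra-C and 2.11 and 0.454 in the intra-S livers.

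**Figure D4:**
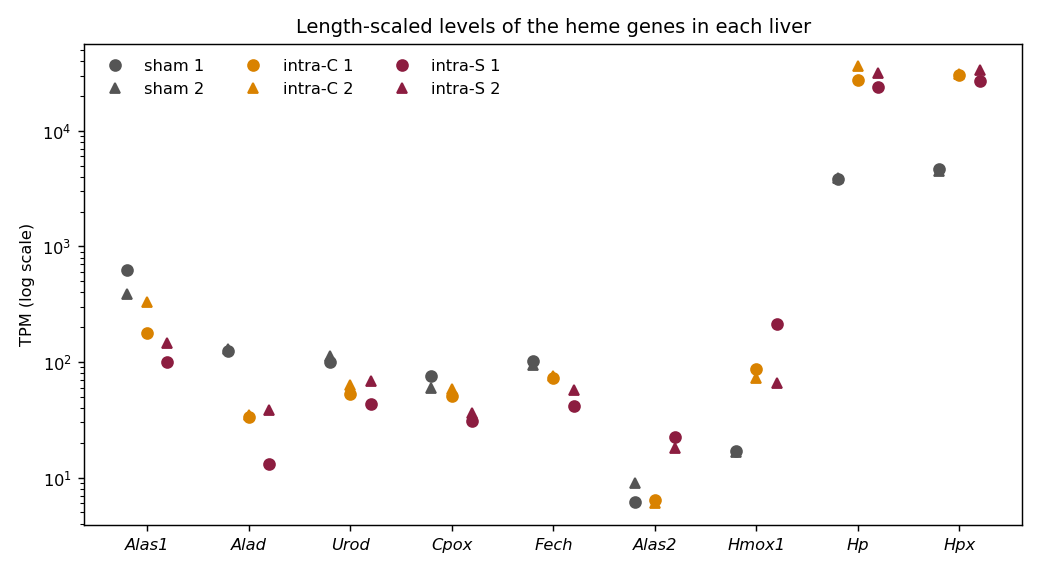
TPM of each heme gene in the 6 livers on a log axis, coloured by group, with circles for replicate 1 and triangles for replicate 2. Alas1, Alad, Urod, Cpox and Fech lie lower in both tumor groups than in sham livers, Hmox1, Hp and Hpx lie higher, and Alas2 is the least abundant of the 9 genes in sham and intra-C livers.

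Among 32 other genes of heme synthesis, transport, breakdown and scavenging, 2 rose and 2 fell in intra-C livers (median log2 fold change -0.22), and 1 rose and 3 fell in intra-S livers (median -0.53), beside 4.92% higher and 2.38% lower of all tested genes in intra-C and 6.78% and 3.95% in intra-S livers. With only the 2 groups compared, or without either intra-S liver, 5 of the 32 were higher and 10 lower in intra-C livers. In intra-S livers the counts were 3 and 7 without intra-S replicate 1, 6 and 15 without replicate 2, and 1 and 0 with only the 2 groups compared or without either intra-C liver. Without either sham liver, none of the genes in this or the other lists was called. Cd163, the macrophage receptor that takes up haptoglobin with bound hemoglobin, rose in both, from 13.3 and 10.1 CPM in sham to 84.5 and 91.3 CPM in intra-C and 60.4 and 72.3 CPM in intra-S livers. Its log2 fold changes were 2.91 (SE 0.24, adjusted p = 0.0058) and 2.50 (SE 0.23, adjusted p = 0.00578). Ambp, the precursor of the heme-binding plasma protein alpha-1-microglobulin, rose in intra-C livers (log2 fold change 1.04, SE 0.21, adjusted p = 0.0406) and had 0.86 (adjusted p = 0.0522) in intra-S livers. Its intra-C call was lost in 8 of the 16 alternatives. Lrp1, the receptor for hemopexin with bound heme, was at 350 and 375 CPM in sham, 684 and 921 CPM in intra-C and 181 and 370 CPM in intra-S livers and passed the test in neither group. Glrx5, a mitochondrial protein of iron-sulfur cluster assembly, fell in intra-C (log2 fold change -1.40, adjusted p = 0.0154) and intra-S livers (-0.86, adjusted p = 0.0386). Slc25a37, the mitochondrial iron importer mitoferrin, fell in intra-C livers (-0.93, adjusted p = 0.0395). The intra-C calls of Glrx5 and Slc25a37 were lost in 4 and 5 of the 16 alternatives. The porphyrin transporter Abcb6 (-1.27, adjusted p = 0.0384) and the heme and folate transporter Slc46a1 (-1.38, adjusted p = 0.0217) fell in intra-S livers. Whether these effects differ between the tumor groups was tested in the direct comparison, where none of the 32 genes was called. DESeq2 called 1 higher and 3 lower there, and 4 were higher and 9 lower without intra-S replicate 2.

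**Figure D5:**
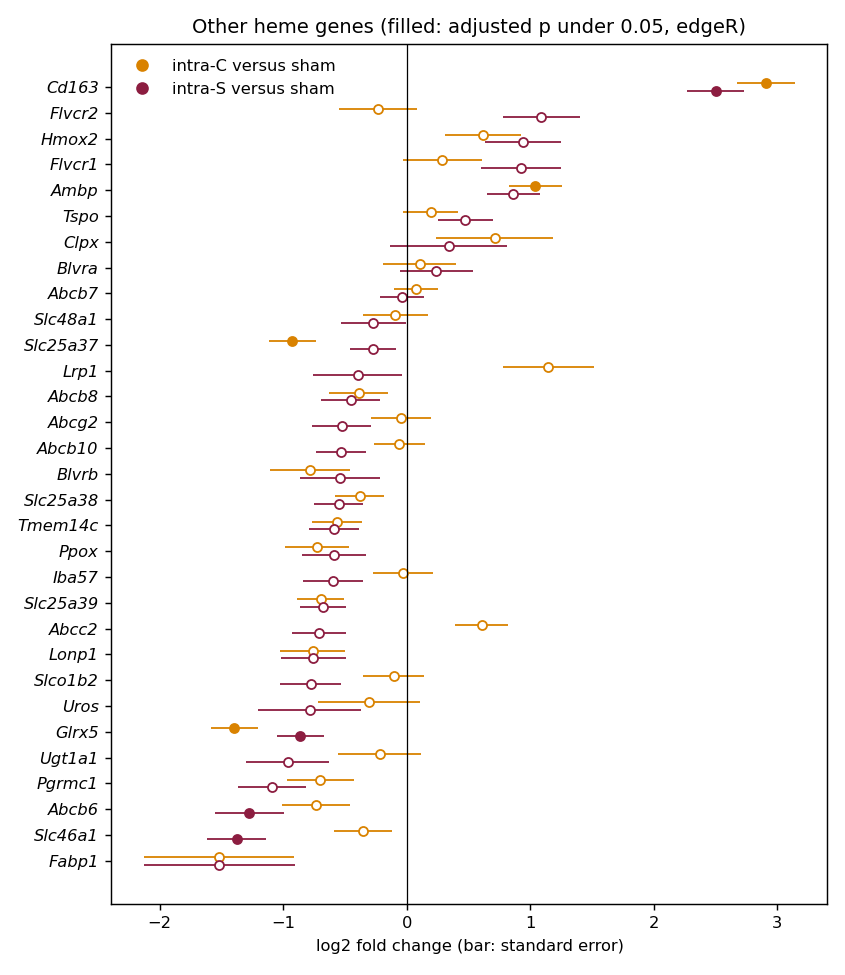
Points are log2 fold changes against sham of other heme genes with their standard errors (edgeR), ordered by the intra-S value and filled where the adjusted p was under 0.05. Cd163 has the highest value in both groups (2.91 and 2.50), and most of the other genes lie near or below 0.

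Of 20 regulators with known effects on these genes, 2 rose and 1 fell in intra-C livers and 4 rose and 1 fell in intra-S livers (median log2 fold changes 0.55 and 0.59, and shares of all tested genes as above). In intra-C livers 10 were higher and 2 lower with only the 2 groups compared or without either intra-S liver, and none was called without either intra-C liver. In intra-S livers 9 were higher and 2 lower without intra-S replicate 2, 4 and 3 without replicate 1, and 1 and 0 with only the 2 groups compared or without either intra-C liver. Stat3, the transcription factor through which interleukin-6 acts on acute phase genes such as Hp and Hpx, rose in intra-C (1.82, SE 0.19, adjusted p = 0.00785) and intra-S livers (1.03, SE 0.18, adjusted p = 0.0236). Its feedback inhibitor Socs3 had log2 fold changes of 4.05 and 3.49 (adjusted p = 0.0195 and 0.0213), and over the alternatives these ranged from 3.02 to 4.42 and from 2.25 to 4.09. Cebpd, a C/EBP factor of the acute phase, rose in intra-S livers (2.76, adjusted p = 0.0421), with 4.16 and 2.06 when sham replicate 1 or 2 was left out and the call was lost. Spic rose there too (2.61, adjusted p = 0.0146). Nr1i3, the nuclear receptor CAR, which acts on Alas1 and cytochrome P450 genes, fell in both, with log2 fold changes of -1.55 (adjusted p = 0.0291) and -1.53 (adjusted p = 0.0241). Bach1, a repressor of Hmox1, was at 31.5 and 27.8 CPM in sham, 117 and 62.1 CPM in intra-C and 30.4 and 62.4 CPM in intra-S livers and was not called.

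Genes whose products carry heme in hepatocytes, or work beside it, were on the lower side with Alas1 and Alad. Of 20 such genes, 5 fell in intra-C and 6 in intra-S livers and none rose, with median log2 fold changes of -0.92 and -1.13, beside 2.38% and 3.95% of all tested genes called lower. In intra-C livers 17 were lower and 1 higher with only the 2 groups compared or without either intra-S liver, and none was called without either intra-C liver. In intra-S livers 17 were lower without intra-S replicate 1, 11 without replicate 2 (1 higher), 4 or 2 without intra-C replicate 1 or 2, and 2 with only the 2 groups compared. Catalase (Cat) was at 2517 and 2253 CPM in sham, 697 and 796 CPM in intra-C and 242 and 441 CPM in intra-S livers (log2 fold changes -1.68 and -2.80, adjusted p = 0.035 and 0.00912). Cyp1a2 had the largest differences of the list, -3.96 (adjusted p = 0.023) and -5.14 (adjusted p = 0.0115), with sham livers at 1467 and 502 CPM. Without sham replicate 1 these were -2.99 and -4.16 and were no longer called. Cyp3a11 and Cyp2f2 fell in intra-C livers (-2.31 and -1.44, adjusted p = 0.0291 and 0.0477), and Cyp2f2 and Cyp2e1 fell in intra-S livers (-1.89 and -1.67, adjusted p = 0.021 and 0.0133). Reads of cytochrome P450 genes with close paralogs may have been lost or split, since only uniquely aligned reads were counted.

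The genes whose levels across the 6 livers were most like each heme gene were found by Pearson's r of log2 CPM over 7261 genes, as a description that the 3 groups themselves shape. For Alas1 these were Slc17a1 (r = 0.987), Apoa5 (0.980) and Inpp5b (0.976), and for Alas2 they were Anxa5 (0.990) and the globin genes Hbb-bt (0.989) and Hbb-bs (0.988). Fech was closest to Gramd1c, Rhof and Slc46a1 (0.993 to 0.994). Hp was closest to Msn (0.999) and the acute phase genes Lcn2 (0.999) and Orm2 (0.998), and Hpx to Lgmn, Emilin2 and A2m (0.998 each). Hmox1 was closest to Mef2a (1.00), Il4ra (0.998) and Plvap (0.996). Alad was nearest to Cd59a, Tars2 and Suds3, Urod to Atp5k, Zfand1 and Zfp706, and Cpox to Zgpat, Ccnl2 and Ugt1a6b.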

How the data were processed

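Polyadenylated RNA of 6 mouse livers was sequenced with a kit that does not mark strand. The authors aligned the reads with HISAT2 2.1.0 to mm10, counted uniquely aligned reads on exons with featureCounts (Subread 2.0.6, per the submitters' processing notes) and deposited raw counts per gene. They also deposited TPM values made from those counts and gene lengths. The annotation and the strand setting of the counting were not given in the sources used here. All columns were matched to a liver by name.

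The analysis here ran in R 4.3.3 and Python 3.11.15. Counts were tested with edgeR 4.0.16 (quasi-likelihood, TMM, filterByExpr with a count minimum of 10, 1 fit over 6 livers, Benjamini-Hochberg adjustment over 16370 genes, threshold 0.05). The procedure was tested on simulated data. The 16 alternatives were DESeq2 1.42.0, limma 3.58.1 on log2(TPM + 1) and log2(TPM + 0.1), no filter on low counts, a minimum of 10 counts per liver, a fit of the 2 compared groups alone, a block for replicate number, plain library totals, TMM factors made without the top 100 genes, robust dispersion, and fits that left out 1 liver. TPM values gave levels between genes.

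The heme genes and the lists (other heme genes, regulators, heme-containing enzymes, NRF2 and BACH1 targets, acute phase proteins, and erythroid, hepatocyte, macrophage, neutrophil and ductal markers) were chosen with earlier results of these data known. Ahsp, Tf and Cldn4 of these lists were not in the table. Named were all 9 genes, called genes of the lists, up to 4 per list and comparison by log2 fold change, the most abundant markers, and the 3 genes most like each heme gene (mean of at least 10 CPM). Hmox2, Lrp1, Bach1, Slc40a1, Gata1, Ttr, C3, Mpo, Elane and Camp were named after their values were seen. Values of some listed genes are not reported here. Log2 CPM used a prior count of 2. Positions and promoters are from RefSeq GRCm38.p6, which is mm10, and antisense overlaps from GENCODE. DESeq2 and limma served only as alternatives.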

Additional observations from a re-analysis of the deposited data

Results flagged for a closer look

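Among the heme genes, the 32 other heme genes and the 20 regulators, 2 genes drew attention because both intra-C livers were above, and both intra-S livers below, both sham livers. How many of all tested genes show this order was not counted, so these 2 genes cannot be called unusual. Abcc2, the canalicular pump that exports conjugated bilirubin, the end product of heme breakdown, was at 150 and 140 CPM in sham, 249 and 193 CPM in intra-C and 82.5 and 94.3 CPM in intra-S livers. Its log2 difference between intra-S and intra-C livers was -1.32, with an adjusted p of 0.285 in edgeR. Ireb2, an RNA-binding protein that senses iron and represses translation of Alas2 and ferritin RNA, was at 58.1 and 65.1 CPM in sham, 106 and 78.5 CPM in intra-C and 54.7 and 53.2 CPM in intra-S livers. Its log2 difference was -0.77, with an adjusted p of 0.291. Neither difference passed the test. Groups of 2 livers are too small to test for single outlying livers.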

How the results depend on the processing

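The calls of Hp and Hpx against sham held in 14 of 16 alternatives and were lost without either sham liver, when 1 sham liver was left and no gene at all was called (adjusted p of 0.115 to 0.12 in intra-C and 0.0871 to 0.0933 in intra-S livers). The intra-S calls of Alas1, Alas2, Alad and Hmox1 held in 11 of 16 and were lost without either sham or either intra-C liver, and with only the 2 groups compared, with adjusted p-values of 0.0543 to 0.235. In each leave-one-out fit the lone liver of a group is assumed to vary like the others. DESeq2 called 1709 genes higher and 1110 lower in intra-C than in sham livers, 2065 and 1465 in intra-S than in sham livers, and 240 and 284 between intra-S and intra-C livers. Of the 9 heme genes it called 3 higher and 1 lower in intra-C, 4 higher and 4 lower in intra-S, and 1 higher and 0 lower in the direct comparison. With only the 2 groups compared, 2548 and 2223 genes were called in intra-C livers (2 heme genes lower) and 276 and 116 in intra-S livers (2 heme genes higher, 0 lower). Without TMM, 801 genes were lower in intra-C and 1115 in intra-S livers (4 heme genes), and the median of all genes shifted to -0.25 and -0.23. On log2(TPM + 1), 497 and 896 genes were called in intra-C and 685 and 1553 in intra-S livers (4 heme genes lower). On log2(TPM + 0.1), 890 were lower in intra-C and 1476 in intra-S livers (4 heme genes). The causes were not tested.

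With single livers left out, the genes called ranged from 0 to 2546 higher and 0 to 2112 lower in intra-C against sham, 0 to 3010 and 0 to 2683 in intra-S against sham, and 0 to 1312 and 0 to 1572 in the direct comparison. The heme genes called ranged from 0 to 3 and 0 to 2, 0 to 4 and 0 to 5, and 0 to 2 and 0 to 2. Without either sham liver no gene was called in any of the 3 comparisons, and the highest counts came without an intra-S liver.

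Of 432 alternative values of the heme genes, 14 changed direction, none of them a called difference. Between intra-S and intra-C livers, Urod became -0.084 on log2(TPM + 1), -0.0858 on log2(TPM + 0.1), -0.0304 without intra-C replicate 1 and -0.256 without intra-S replicate 2 (leave-one-out range -0.256 to 0.296). Hpx became -0.0183 on both TPM scales and -0.00711 without intra-S replicate 2 (range -0.00711 to 0.186), and Hp 0.0497 without intra-C replicate 2 and 0.044 without intra-S replicate 1 (range -0.269 to 0.0497). Without intra-S replicate 1, Alad became 0.215 (range -1.24 to 0.215) and Hmox1 -0.235 (range -0.235 to 1.56). Against sham, intra-C Cpox became 0.0544 without sham replicate 1 (range -0.278 to 0.0544), and Alas2 became 0.195 without sham replicate 2 and 0.0124 without intra-C replicate 2 (range -0.331 to 0.195). Called genes among the other heme genes, regulators, heme-containing enzymes and NRF2 and BACH1 targets had 544 alternative values. Of these, 143 missed the threshold and 0 changed direction. Single genes of the acute phase and marker lists were not followed in this way.

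The labels do not say whether livers with the same replicate number were paired. Deviations of same-numbered livers correlated at -0.0317 between sham and intra-C, 0.17 between sham and intra-S, and 0.118 between intra-C and intra-S over 7261 genes. These weak correlations, from 2 livers per group, cannot decide whether same-numbered livers were paired. With the replicate block, 259 genes were lower in intra-C than in sham livers and Hmox1 was called higher there (adjusted p = 0.0418), and no other call of a heme gene changed. Depth did not limit these genes, since the lowest level among them, 5.54 CPM for Alas2, was far above the detection limits.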

Other observations

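Among 13 genes controlled, like Hmox1, by NRF2 or BACH1 or by metals, 1 rose and 2 fell in intra-C livers and 2 rose and 2 fell in intra-S livers (median log2 fold changes 0.04 and 0.25). Of all tested genes, 4.92% were higher and 2.38% lower in intra-C and 6.78% and 3.95% in intra-S livers. With only the 2 groups compared, 3 of 12 were higher and 3 lower in intra-C livers, and 0 and 1 in intra-S livers. Without intra-S replicate 1 or 2, 3 rose and 3 fell in intra-C livers, and 3 or 4 rose and 3 fell in intra-S livers. Without either intra-C liver none was called in intra-C livers, and 2 or 1 were higher and 1 lower in intra-S livers, and without either sham liver none was called. The metallothionein Mt2, which binds zinc and copper, rose in both (log2 fold changes 2.57 and 2.89, adjusted p = 0.0222 and 0.0141), and Mt1 rose in intra-S livers (2.22, adjusted p = 0.0241, and 1.57 without intra-S replicate 1). Nqo1, a quinone reductase often used to read out NRF2, fell in both (-1.65 and -1.95, adjusted p = 0.0223 and 0.0131). Gclc, the catalytic subunit for the first step of glutathione synthesis, fell in intra-S livers (-1.34, adjusted p = 0.0303). The ferritin light chain gene Ftl1, which stores iron set free from heme, fell in intra-C livers (-1.21, adjusted p = 0.0429), and its intra-S value was -0.56 (adjusted p = 0.194). Slc40a1, the iron exporter ferroportin, was at 141 and 165 CPM in sham, 164 and 229 CPM in intra-C and 419 and 206 CPM in intra-S livers and was not called. Intra-S replicate 1, the highest liver in Slc40a1, was also the highest in Hmox1.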
